A study of Mus musculus with 4 samples.

Results

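A minority of the beta cells of mice without Sel1L in their beta cells carried transcripts of Aldh1a3, and these cells are described here. A cell was counted as a beta cell when Ins1 and Ins2, the mouse insulin genes, made up at least 10% of its unique molecular identifiers (UMIs, the count of captured RNA molecules), and Gcg (glucagon) and Sst (somatostatin) each made up less than 1%. It was counted as Aldh1a3-positive when it also held at least 1 Aldh1a3 UMI. There were 402 such cells in knockout library 1 and 221 in knockout library 2. Together they were 623 of 3860 knockout beta cells, and of 18612 cells in all 4 libraries. Each positive cell was set against 3 beta cells of its own library with 0 Aldh1a3 UMIs and the nearest total UMI count, which gave 1206 and 663 matched cells. The cells were thus chosen by their counts of Ins1, Ins2, Gcg, Sst and Aldh1a3, whose values are descriptions and were not tested.

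Islets came from C57BL/6 mice, with 2 wild type libraries (Sel1L f/f, floxed alleles without Cre) and 2 knockout libraries (Sel1L Ins1, in which Cre recombinase is driven from the insulin gene Ins1). Their age is 7 weeks in the labels of the samples but 5 weeks in the design text. Islets recovered overnight in RPMI medium, were dissociated with trypsin and underwent 3′ single-cell RNA sequencing on the 10x platform. Mice carrying Cre with both Sel1L alleles intact were not among the groups, and what Cre does and what loss of Sel1L does cannot be told apart. Nothing in the labels ties a replicate to an animal of its own, so the spread between libraries may be technical. In comparisons of cells within libraries, p-values rest mainly on a spread shared over genes. Between positive and matched knockout cells this spread was close to counting error, so a small p does not show that both libraries agree. Cd74, a macrophage marker, passed there with log2 ratios of -4.61 and 0.90 in knockout libraries 1 and 2 (edgeR adjusted p = 5.27e-13). In the comparison of knockout with wild type cells p-values measure the spread between libraries of a genotype.

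SEL1L works with the ubiquitin ligase HRD1, a pair that sends misfolded proteins of the endoplasmic reticulum (ER) to degradation. ALDH1A3 is an aldehyde dehydrogenase that oxidises retinaldehyde to retinoic acid. It is scarce in healthy adult mouse beta cells and is widely used as a marker of failing or dedifferentiating beta cells in diabetic mice. Other genes used in the same way are Neurog3, a transcription factor of endocrine progenitors, and Mafa, a transcription factor of mature beta cells whose loss marks reduced maturity.

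The libraries held between 2483 and 5951 cells and between 99156230 and 228515309 UMIs. Any pair of libraries shared between 1 and 9 cell barcodes, and the knockout libraries shared 3, none of them an Aldh1a3-positive beta cell. Sel1l itself stood at 42.0 and 45.4 CPM (the gene's UMIs scaled to the total of all UMIs in the set of cells) in the positive cells of knockout libraries 1 and 2, at 42.7 and 43.1 in the matched cells, and at 34.0 and 32.4 in wild type beta cells. Counts at the 3′ end may lie outside the deleted part of the gene, so these values do not check the genotype.

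Aldh1a3 lies on the minus strand of mouse chromosome 7 (GRCm38, the genome build mm10), from 66390890 to 66427517. In wild type libraries 1 and 2, 11 of 3725 and 36 of 3683 beta cells held an Aldh1a3 UMI. That is 0.295% (95% exact binomial interval 0.148 to 0.528) and 0.977% (0.686 to 1.35). In knockout libraries 1 and 2 the share was 16.3% (14.8 to 17.8) of 2469 and 15.9% (14.0 to 17.9) of 1391 beta cells. Both knockout libraries lay above both wild type libraries, at 16.1% ± 0.279 against 0.636% ± 0.482 (SD, n = 2 each). With 2 libraries a group the two-sided exact permutation test cannot go below p = 0.33, the value it gave. The intervals cover counting error only.

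Deeper cells were counted as positive more often: positive knockout beta cells held a median of 51370 and 57517 UMIs, and all knockout beta cells without an Aldh1a3 UMI held 42580 and 49655. Between genotypes total depth was similar, with a median beta cell of 46913 and 49879 UMIs (wild type) against 43918 and 51227 (knockout). Outside insulin it was not. Beta cells without Aldh1a3 held a median of 14732 and 15495 UMIs of other genes (wild type) against 25750 and 27525 (knockout). After each cell was thinned to 10000 UMIs, 4.27% and 3.97% of knockout beta cells and 0.0274% and 0.164% of wild type beta cells held an Aldh1a3 UMI. Thinning left out 79, 16, 34 and 31 shallower beta cells of wild type libraries 1 and 2 and knockout libraries 1 and 2. It acted on total UMIs and so kept the gap outside insulin, whose part in the shares was not tested.

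Alpha cells, which should lack the gene, were used as a guide to stray RNA. Among gated alpha cells, an Aldh1a3 UMI was found in 0% and 0.212% (wild type) and in 0.395% and 0.302% (knockout), at a median of 17680 to 26725 UMIs per cell. These shares rest on few cells. In wild type library 2, 1 of the 2 positive alpha cells held 16 of their 17 UMIs, and in knockout library 2 a single cell held all 7. The knockout beta share stood above the alpha shares, whereas the wild type beta share of library 1 lay within the interval of its alpha share (0 to 0.328). Aldh1a3 was also found in other cell types. Cells with stromal markers held it at 281 and 1053 CPM (wild type) and 324 and 309 CPM (knockout), with a UMI in 14.3% to 22.1% of these cells. Cells with Schwann markers held a UMI in 7.41% to 27.3%, and gated delta cells in 1.58% to 2.16%, above the wild type beta share at a lower depth. The pooled level in knockout beta cells was far lower than in stromal cells, 5.39 and 5.02 CPM, against 0.0785 and 0.245 in wild type beta cells.

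**Figure D1:**
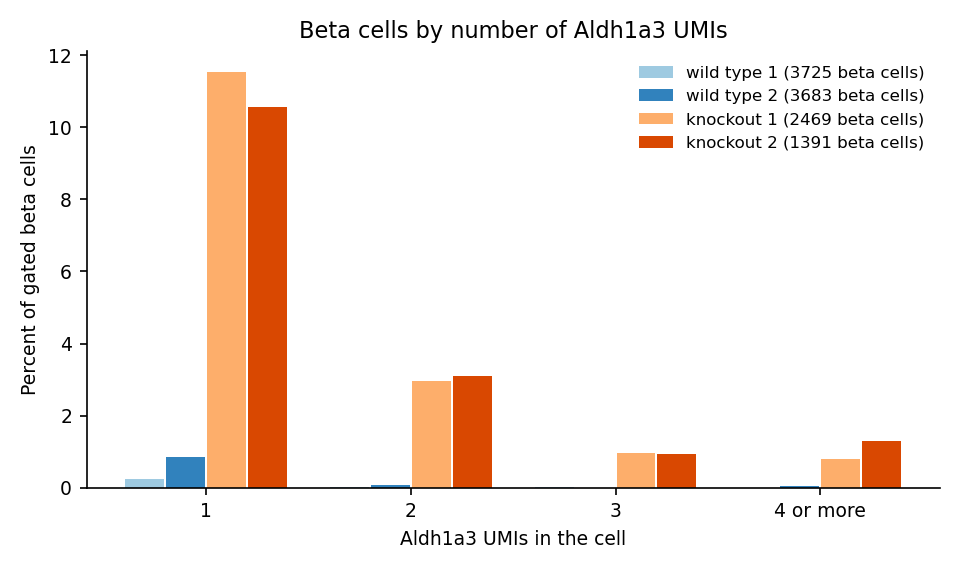
Share of gated beta cells (vertical axis, percent) with 1, 2, 3 or at least 4 Aldh1a3 UMIs (horizontal axis) in each of the 4 libraries, 1 bar per library. Most positive knockout cells held a single UMI, 285 of 402 and 147 of 221, and the bars of both knockout libraries are close at every number.

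Most Aldh1a3-positive cells held a single molecule. In knockout library 1, 285 cells held 1 UMI, 73 held 2 and 44 held 3 or more, with a maximum of 12. In knockout library 2 the numbers were 147, 43 and 31, with a maximum of 14. The UMIs were spread more unevenly over beta cells than independent counting gives, with a variance 2.29 and 2.82 times the mean. At the 1-UMI threshold the cells just inside are the 285 and 147 cells with 1 UMI, and those just outside hold none. The insulin threshold decided few cells: 1 Aldh1a3-positive cell per knockout library had an insulin share between 8% and 10%, and 0 and 1 positive cells lay between 10% and 12%.

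Beta cell genes that the choice did not use were found in most of these cells. The 7 beta cell markers summed to 60153 and 58267 CPM in positive, 61756 and 55046 in matched and 52210 and 55293 in wild type beta cells. Iapp (islet amyloid polypeptide, released with insulin) was found in 100% of positive cells of both libraries, Nkx6-1 in 97.5% and 99.5%, and G6pc2 in 97.0% and 99.5%. Pdx1 was found in 89.3% and 88.2% of them and the glucose transporter gene Slc2a2 in 63.4% and 67.0%. Detection alone does not mark a type here, since Gcg was found in 100% and 99.5% of the same cells. Positive and matched cells were close in depth and in measures of cell quality. The median total was 51370 against 50974 UMIs in library 1 and 57517 against 57139 in library 2, with 5648 against 5636 and 5862 against 5891 detected genes. The mitochondrial share was 3.54% against 3.45% and 3.49% against 3.46%. Ins1 and Ins2 made up 42.7% of all UMIs of positive and 42.3% of those of matched cells in library 1, and 45.2% and 46.2% in library 2. In wild type beta cells without Aldh1a3 they made up 67.6% and 68.2%. Insulin RNA chose the cells, so these shares are a description.

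Across all genes the positive cells were close to their matched neighbours. In the comparison of positive with matched cells, 456 of 13303 genes passed edgeR's quasi-likelihood test with a Benjamini-Hochberg adjusted p under 0.05, which is 3.43% of the genes tested. Of these, 258 (1.94%) were higher and 198 (1.49%) lower in positive cells, and 419 had the same direction in both libraries. The median log2 difference over all genes was 0.00. The matched cells themselves differed far more from wild type beta cells: 5547 of 14787 genes passed, 37.5%, with 2749 higher (18.6%) and 2798 lower (18.9%). With scaling by library size alone these became 12245 higher and 275 lower, and the median of all genes moved from 0.01 to 0.87, so directions against wild type are relative to the median gene. Both comparisons use the same matched cells, so their values stand side by side here and were not correlated.

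The p-values of the first comparison need care, because they rest on 4 sums with 1 residual degree of freedom and a spread close to counting error. DESeq2 called 8 genes (0.0601%), all higher: Ckb, Id3, Ttr, Ednrb, Emcn, Sparc, Igfbp3 and Gpihbp1 (the last one named only because it completes the list). Cells with endothelial, stromal, Schwann or macrophage marker RNA were 18 of 402 and 6 of 221 positive cells, and 22 of 1206 and 9 of 663 matched cells. Without such cells on either side, 364 of 13025 genes (2.79%) passed, 200 higher (1.54%) and 164 lower (1.26%), and 316 of the 456 genes were called again in the same direction. Without the library as a block no gene passed the edgeR test, with 586 genes at an unadjusted p under 0.05 against 1572 with it.

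In all, 15 genes were called in the same direction in the main comparison and in each of 16 alternatives that kept the library block and used edgeR or limma. They were singled out after their values were seen. There were 8 higher in positive cells (Ckb, Id3, Ttr, Tmem163, Id2, App, Fxyd6 and Wnt4) and 7 lower (Il18bp, Tacc2, Slc40a1, Gatm, Serping1, 1810008I18Rik and Acly). None of the 15 had more than 14.3% of its UMIs of either library in a single positive cell.

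Levels against wild type are given here in CPM. Insulin takes a larger share of wild type UMIs, and scaled to the median gene Id3 was called lower in matched than in wild type cells (-0.52, edgeR adjusted p = 0.0152), and Ckb (-0.62) and Acly (-0.20) had negative values that were not called.

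Ckb, the brain-type creatine kinase that buffers ATP, stood at 98.2 and 88.3 CPM in the positive cells of knockout libraries 1 and 2 and at 65.1 and 52.9 in the matched cells. All wild type beta cells without Aldh1a3 held 34.2 and 64.4. The positive cells were the highest of the 3 groups and overlapped with neither of the others on this scale. The log2 difference between positive and matched cells was 0.66 ± 0.037 (SE, edgeR adjusted p = 9.97e-49).

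Id3, an inhibitor of basic helix-loop-helix transcription factors and a target of BMP signalling, stood at 47.6 and 38.1 CPM in positive cells, 31.0 and 22.0 in matched cells, and 21.7 and 20.3 in wild type cells. Positive cells were again highest without overlap (log2 difference 0.70 ± 0.054, edgeR adjusted p = 1.78e-28). It was found in 37.8% and 33.5% of positive and in 29.7% and 25.9% of matched cells. Id2, of the same family, stood at 77.0 and 72.0 in positive cells against 61.7 and 61.2 in matched and 37.0 and 27.4 in wild type cells (0.29 ± 0.038, edgeR adjusted p = 4.64e-11). Of both Id genes the positive cells held most on this scale.

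Ttr, transthyretin, a carrier of thyroxine and of retinol-binding protein, followed another order. It is also on the list of alpha cell markers. It stood at 214 and 227 CPM in wild type cells, at 103 and 90.4 in matched cells, and at 155 and 117 in positive cells. The positive cells lay between the other groups (log2 difference from matched cells 0.51 ± 0.033, edgeR adjusted p = 9e-39). App, the amyloid precursor protein, stood at 102 and 105 in positive cells against 88.0 and 85.6 in matched and 24.3 in both sets of wild type cells. Wnt4, a secreted WNT ligand, stood at 425 and 378 against 366 and 346 in matched and 135 and 148 in wild type cells. App and Wnt4 differed by 0.26 ± 0.034 and 0.18 ± 0.026 on the log2 scale (edgeR adjusted p = 8.55e-11 and 2.3e-09). Tmem163, a zinc transporter, and Fxyd6, a regulator of the sodium pump, were higher by 0.29 and 0.23.

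**Figure D2:**
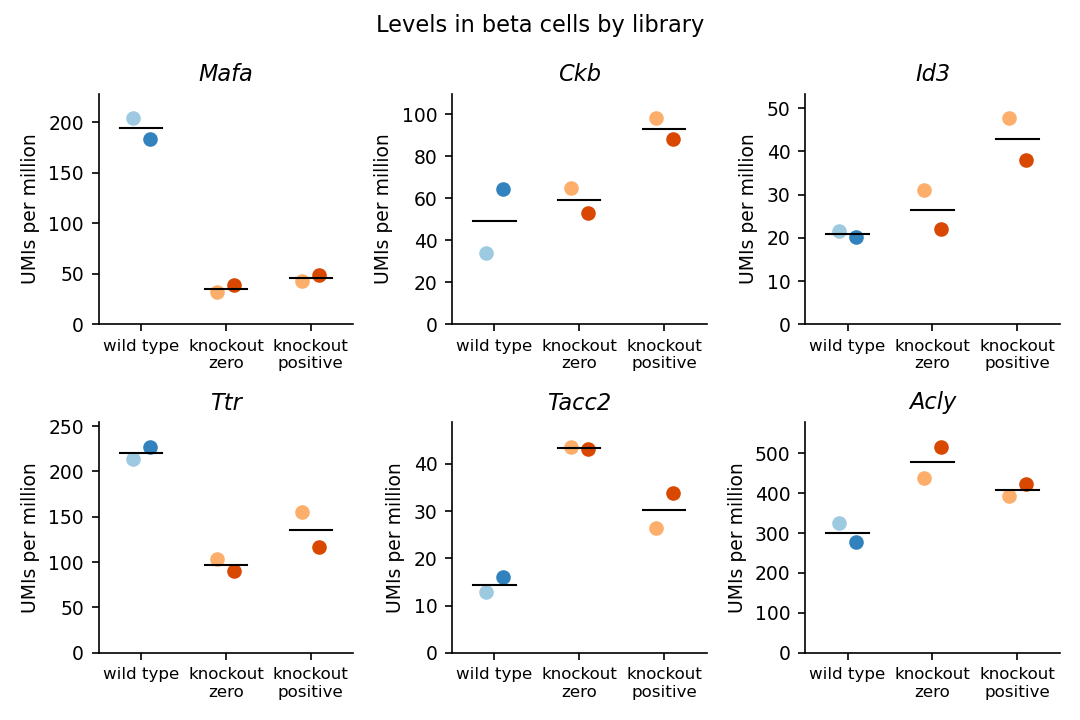
Level of 6 genes (vertical axes, CPM, from 0) in wild type beta cells without Aldh1a3, matched knockout beta cells without Aldh1a3 and Aldh1a3-positive knockout beta cells; points are the 2 libraries of each group and lines their means. On this scale positive cells are highest for Ckb and Id3, lie between the other groups for Ttr, Tacc2 and Acly, and stay near matched cells for Mafa, at 42.5 and 49.1 against 31.5 and 38.5, with wild type at 204 and 184.

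Among the genes that fell, Tacc2, a centrosome-associated coiled-coil protein, stood at 26.5 and 33.9 CPM in positive and at 43.6 and 43.1 in matched cells. Wild type cells held 12.8 and 16.0, so the positive cells lay between the groups (log2 difference -0.55 ± 0.053, edgeR adjusted p = 5.88e-19). Il18bp, a decoy for interleukin-18, stood at 9.59 and 14.7 in positive, 15.8 and 20.9 in matched and 4.81 and 4.85 in wild type cells (-0.61 ± 0.084, edgeR adjusted p = 3.97e-10). Acly, the ATP citrate lyase that supplies acetyl-CoA for lipid synthesis, stood at 392 and 423 in positive and 438 and 516 in matched cells (-0.21 ± 0.026, edgeR adjusted p = 2.15e-12). The iron exporter gene Slc40a1 was lower by 0.31, Gatm (creatine synthesis) by 0.29, Serping1 (an inhibitor of complement C1) by 0.27 and the unnamed transcript 1810008I18Rik by 0.23 on the log2 scale. Of these 7 genes, 6 were called higher in matched than in wild type cells, beside 18.6% of all genes. The exception was Acly.

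Genes of beta cell identity that passed the test were all slightly higher in positive cells. Of 32 identity genes tested, 8 were called higher and 0 lower in positive cells; the median of the list was 0.03, and 1.94% of all genes were called higher. The 8 were Mafa, Abcc8 and Slc2a2 (a subunit of the ATP-sensitive potassium channel and the glucose transporter), the prolactin receptor Prlr, the prohormone convertase Pcsk1, the transcription factors Nkx6-1 and Pdx1, and Ero1lb, which oxidises disulfide bonds of proinsulin. In matched against wild type cells the same list had 2 members higher and 22 lower, with a median of -0.77. Over all genes 18.6% were higher and 18.9% lower in that comparison. The list was drawn up with earlier results of these data known.

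Mafa was the member with the smallest p. It stood at 42.5 and 49.1 CPM in the positive cells, 31.5 and 38.5 in matched cells and 204 and 184 in wild type cells. Positive cells lay above their matched cells in both libraries and far below wild type (log2 difference from matched cells 0.40 ± 0.049, edgeR adjusted p = 1.67e-12; matched against wild type -3.34, edgeR adjusted p = 9.43e-06). Mafa was found in 63.4% and 67.9% of positive and 55.3% and 65.8% of matched cells. DESeq2 gave a Mafa difference of 0.40 with an adjusted p of 0.51, so it was not called there.

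The other identity genes moved less. Abcc8 stood at 186 and 137 CPM in positive and 155 and 128 in matched cells (0.21 ± 0.031, edgeR adjusted p = 1.1e-08). Prlr stood at 94.6 and 87.3 against 82.0 and 77.2 (0.21 ± 0.035, edgeR adjusted p = 2.07e-06) and Pcsk1 at 84.8 and 72.7 against 74.3 and 63.0 (0.21 ± 0.037, edgeR adjusted p = 5.71e-06). Slc2a2 stood at 42.2 and 35.0 against 33.5 and 34.9, a difference carried by library 1. Nkx6-1 and Pdx1 were higher by 0.12 and 0.14. Ucn3, a peptide of mature beta cells, stood at 37.5 and 36.5 against 34.1 and 37.8 and was not called (0.06 ± 0.052, edgeR adjusted p = 0.75).

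Of 18 markers of an immature or dedifferentiated state tested, 4 were called higher (Ppy, Etv5, Cd81 and Gast) and 0 lower, with a median of 0.11. Over all genes 1.94% were higher and 1.49% lower, with a median of 0.00. Without cells that held markers of other types 5 of the 18 were higher and 2 lower. Etv5, a transcription factor downstream of FGF and RAS signalling, moved most, from 3.88 and 3.35 CPM in matched cells to 7.90 and 7.22 in positive cells (1.07 ± 0.14, edgeR adjusted p = 1.13e-11). It was found in 26.9% and 25.3% of positive and 14.3% and 13.9% of matched cells, and wild type cells held 5.29 and 4.77 CPM. Scaled to the median gene, Etv5 was called lower in matched than in wild type cells (-1.34, edgeR adjusted p = 0.000159). That gap is larger than the rise of 1.07 from matched to positive cells. Positive cells were not tested against wild type cells. Ppy, pancreatic polypeptide, stood at 11072 and 6061 CPM against 9520 and 5501 (0.19 ± 0.023, edgeR adjusted p = 1.98e-12). Of its UMIs in positive cells, 6.69% and 14.8% sat in 1 cell of each library. Gast, gastrin, was higher by 0.63 ± 0.18 at 5.30 and 2.80 CPM.

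Neurog3 was not called. It stood at 6.08 and 7.44 CPM in positive, 5.88 and 4.74 in matched and 0.298 and 0.210 in wild type cells (positive against matched 0.32 ± 0.13, edgeR adjusted p = 0.20). Among cells with 1 Aldh1a3 UMI, 18.9% and 27.2% also held Neurog3, among cells with 2 it was 24.7% and 30.2%, and among cells with 3 or more 18.2% and 19.4%. Matched cells held it in 18.7% (95% exact binomial interval 16.6 to 21.1) and 16.0%. At 1 UMI the share lay above that of matched cells in library 2 (interval 20.2 to 35.2) and within their interval in library 1. Pyy, peptide YY, is a gut and islet hormone whose summed level was far above wild type in knockout beta cells, at 17067 and 8897 in positive, 19013 and 8939 in matched and 986 and 1038 CPM in wild type cells. It differed by -0.07 between positive and matched cells (edgeR adjusted p = 0.053).

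Most stress genes did not pass the test between positive and matched cells, although the shares called were above those over all genes (1.94% higher and 1.49% lower). Of 36 genes of ER chaperones and the unfolded protein response, 3 were called higher (Selenok, Fkbp11 and Creld2) and 0 lower, with a median of 0.01. In matched against wild type cells 24 of these 36 were higher and 1 lower, beside 18.6% higher and 18.9% lower over all genes in that comparison. Hspa5, the chaperone BiP, stood at 710 and 694 CPM in positive, 711 and 678 in matched and 197 and 214 in wild type cells. Of 31 genes of ER-associated degradation 2 were higher (Selenos and Herpud1), and of 35 integrated stress response genes 2 were lower, Chac1 (-0.17) and Trib3 (-0.14). Txnip, an inhibitor of thioredoxin, was lower by 0.11 (edgeR adjusted p = 0.0049), and Cd44, a hyaluronan receptor, higher by 0.24 (5.79e-09 by the same test). Of the 19 genes of glycolysis, the 9 genes whose expression beta cells normally shut off and the 13 other aldehyde dehydrogenases, 0 were called by edgeR in the main comparison. Oxidative phosphorylation had 1 of 71 higher, Uqcrh.

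Aldh1a3's own pathway did not move as a group. Of 16 retinoid genes tested, 0 were higher and 1 lower, Ncoa7 (-0.16), with a median of -0.03, beside 1.94% higher and 1.49% lower over all genes. Without cells that held markers of other types 1 of 15 was higher and 0 lower, and Ncoa7 was not called (edgeR adjusted p = 0.072). Dhrs3, which reduces retinaldehyde and is induced by retinoic acid, stood at 3.61 and 3.39 CPM in positive and 3.77 and 2.85 in matched cells (0.08 ± 0.18, edgeR adjusted p = 0.95). The receptor gene Rarb was at 0 and 0.0736 in positive cells and at 0 in both sets of matched cells. In positive and matched cells Aldh1a1 and Aldh1a2 stood at or under 0.957 CPM, and 1 cell held all Aldh1a2 UMIs of the positive cells of library 2.

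**Figure D3:**
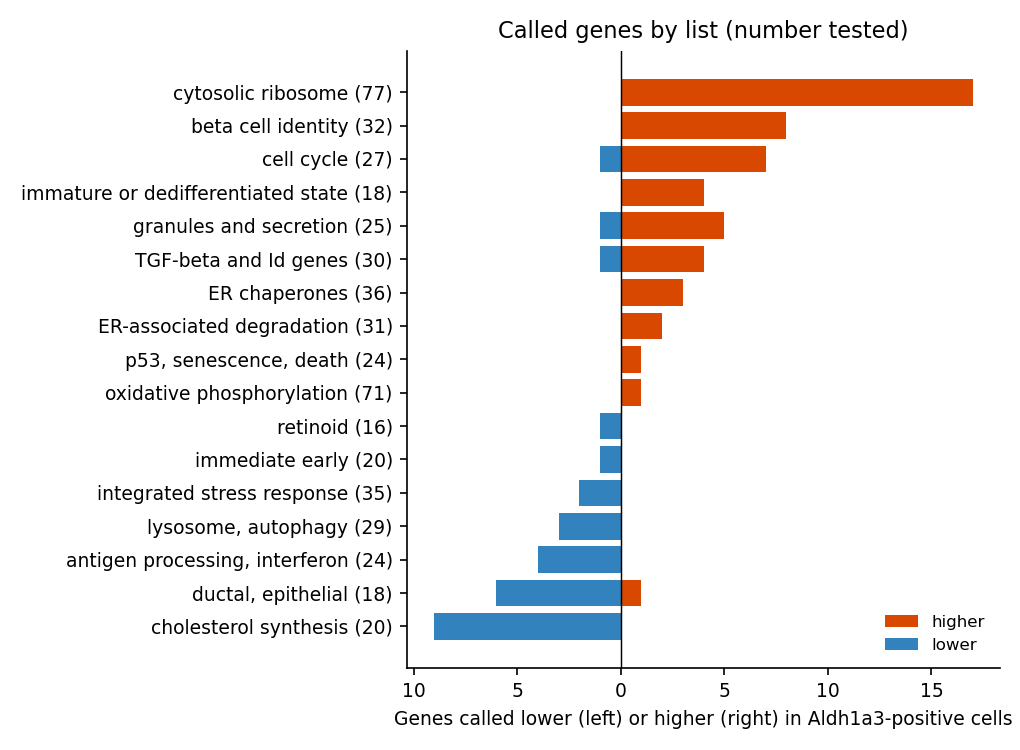
Number of genes called lower (left, blue) or higher (right, orange) in Aldh1a3-positive than in matched knockout beta cells (horizontal axis, genes) in each gene list with at least 1 call, with the number tested in brackets. Cytosolic ribosome (17 of 77) and beta cell identity (8 of 32) have calls to the right only, and cholesterol synthesis (9 of 20) to the left only.

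Of 20 genes of cholesterol synthesis and uptake tested, 9 were lower, 0 were higher and 11 did not pass the test, with a list median of -0.18, and 1.49% of all genes were lower. Fdps (farnesyl diphosphate synthase) stood at 71.4 and 69.9 CPM in positive and 87.5 and 83.2 in matched cells (-0.27 ± 0.037, edgeR adjusted p = 1.03e-09). Cyp51, another enzyme of the pathway, stood at 22.7 and 24.1 against 28.4 and 29.9 (-0.31 ± 0.064, edgeR adjusted p = 0.000144). In matched against wild type cells 13 of the 20 were lower and 1 higher, beside 18.9% lower and 18.6% higher over all genes in that comparison. Without cells that held markers of other types, 8 of the 20 were lower.

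Of 24 genes of antigen processing and interferon response, 4 were lower and 0 higher, with a median of -0.13. For this and the following lists, 1.94% of all genes were higher and 1.49% lower. They included Psmb8 and Psmb10, subunits of the immunoproteasome, at 40.1 and 38.8 against 48.1 and 45.3 CPM and at 35.2 and 36.7 against 41.5 and 41.1. Bst2, tetherin, stood at 2.38 and 3.46 against 5.56 and 8.29 (-1.23 ± 0.15, edgeR adjusted p = 5.27e-13). Of 77 cytosolic ribosomal protein genes 17 were higher and 0 lower, each by little (list median 0.06; Rplp0 stood at 1410.4 and 1419 against 1318 and 1292). Of 25 genes of granules and secretion 5 were higher, among them Scg2 (0.16) and Vgf (0.44), and 1 lower. Of 18 ductal and epithelial genes 6 were lower, among them Krt7 (-0.17), and Cd44 was higher. Of 29 lysosomal and autophagy genes 3 were lower, among them the cathepsin gene Ctsb (-0.26).

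Some cell cycle genes were higher in positive cells, and the RNA of several of them sat largely in few cells. Of 27 tested, 7 were higher and 1 lower (Ube2c), with a median of 0.20, beside 1.94% higher and 1.49% lower over all genes. Stmn1, which destabilises microtubules, stood at 47.5 and 31.4 CPM against 29.7 and 23.9 in matched cells (0.58 ± 0.056, edgeR adjusted p = 1.24e-19). It was found in 10.7% and 11.3% of positive and 11.3% and 12.1% of matched cells, and 1 cell per library held 15.0% and 37.5% of its UMIs. Birc5 (0.75), Mki67 (0.52) and Top2a (0.45), and Atad2 (0.60) outside the list, were higher too, with 12.8% to 44.6% of the UMIs of each in 1 positive cell per library. Ccnd1, also called higher (0.21 ± 0.035, edgeR adjusted p = 4.04e-07), was spread widely. It was found in 93.8% and 93.7% of positive cells, with 1.20% and 1.54% of its UMIs in 1 cell per library. Among cells with at least 2 Aldh1a3 UMIs the Mki67 difference was -0.10 (edgeR adjusted p = 0.94), and with 1 matched cell per positive cell that of Top2a was -0.13.

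Markers of other cell types moved with the group. The 8 endothelial markers summed to 66.2 and 18.5 CPM in positive and 25.7 and 15.2 in matched cells, and 7 of the 8 were called higher. Emcn, Egfl7, Esm1, Ednrb and Igfbp3 were among the 12 largest rises by the rule for named genes (1.85, 1.30, 1.60, 1.87 and 2.62), with 35.4% to 90.3% of the UMIs of each in 1 positive cell per library. Sparc, a stromal and endothelial matrix protein, was higher by 1.37, with 48.0% and 72.9% in 1 cell. After cells with markers of other types were left out, the endothelial sums were 7.86 and 7.10 in positive and 7.31 and 8.30 in matched cells, and edgeR called 0 of the 4 endothelial markers still tested. The cells left out held at least 10 UMIs of endothelial, Schwann or macrophage markers or at least 5 of stromal markers. Low endothelial and stromal sums without them thus follow from the filter and are a description. The 9 stromal markers, whose cells carry Aldh1a3, summed to 27.4 and 22.8 CPM in positive and 12.9 and 7.52 in matched cells, and to 1.21 and 1.07 against 1.16 and 0.827 without those cells. Igfbp3 and Sparc then differed by 0.02 and 0.37 and were not called. The 8 alpha markers, Gcg among them, summed to 566 and 328 CPM in positive and 480 and 301 in matched cells. Of the 6 tested Ttr alone was called, beside 1.94% higher over all genes. The 6 delta markers, Sst among them, summed to 108 and 107 against 109 and 71.6, and 0 of the 3 tested were called.

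Macrophage markers went the other way in library 1, where they summed to 33.9 CPM in positive and 83.4 in matched cells; in library 2 they summed to 76.2 and 58.7. H2-Eb1, an antigen-presenting molecule, was lower by 2.11 and differed by 0.25 without cells that held markers of other types. Of the 10 macrophage markers tested, 5 were called lower and C1qa higher. It stood at 30.9 and 27.5 CPM in positive and 24.5 and 20.9 in matched cells (0.37 ± 0.065, edgeR adjusted p = 2.69e-06) and differed by 0.52 without those cells. It was found in 60.0% and 58.8% of positive cells, and C1qb, which encodes its partner chain, in 2.49% and 1.81%. Ckb, Id3, Ttr, Mafa and Etv5 differed by 0.66, 0.74, 0.48, 0.40 and 1.06 without cells that held markers of other types, close to the values with them.

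The remaining genes of the rule for named genes were smaller or rarer. Dapl1 rose from 6.21 and 6.97 to 10.5 and 10.8 CPM, and wild type cells held 45.6 and 40.6. The largest falls beside Tacc2, Il18bp and H2-Eb1 were Spp1 (-1.39), S100a6 (-0.85), Igfbp5 (-0.63), Rgs4 (-0.61), Ube2l6 (-0.47), Ugt2b34 (-0.46), Gem (-0.44), Folr1 (-0.44) and Galns (-0.42). Rgs4, which shortens G protein signalling, was found in 27.1% and 38.0% of positive and 37.6% and 44.5% of matched cells. S100a6 had 22.3% and 61.6% of its UMIs in 1 positive cell per library and was not lower among cells with at least 2 Aldh1a3 UMIs (0.40, edgeR adjusted p = 0.50).

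Several differences were larger in cells with more Aldh1a3. Cells with at least 2 UMIs were 117 and 74 of the positive cells, and against cells matched to them anew 162 of 11785 genes were called (1.37%), 87 higher (0.738%) and 75 lower (0.636%). Mafa stood at 60.9 and 67.1 CPM in these cells and at 35.1 and 32.8 in their matched cells (0.92, edgeR adjusted p = 1.17e-07). Among cells with exactly 1 UMI Mafa differed by 0.16 (edgeR adjusted p = 0.59), and the difference between the groups by number was not tested. In cells with 1, 2 and at least 3 UMIs, Mafa stood at 34.2, 46.7 and 80.4 CPM in library 1 and at 39.0, 44.8 and 94.4 in library 2. It was higher at each step in both libraries.

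Ttr stood at 137, 139 and 270 CPM at 1, 2 and at least 3 Aldh1a3 UMIs in library 1 and at 109, 128 and 134 in library 2. Tacc2 was lower at each step, at 29.2, 21.8 and 18.2 in library 1 and 38.2, 28.1 and 24.1 in library 2. Pyy stood at 19292, 15618 and 7331 CPM in library 1 and at 9372, 10668 and 4853 in library 2, lowest in both among cells with at least 3. Ckb and Id3 were already higher among cells with exactly 1 UMI (0.56 and 0.76, both with an edgeR adjusted p of 2.32e-05). Depth moved with the number, since the median cell with at least 3 Aldh1a3 UMIs held 65475 and 59466 UMIs and the median cell with 1 held 49963 and 55268; its part in these steps was not tested. The groups with at least 3 held 44 and 31 cells.

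**Figure D4:**
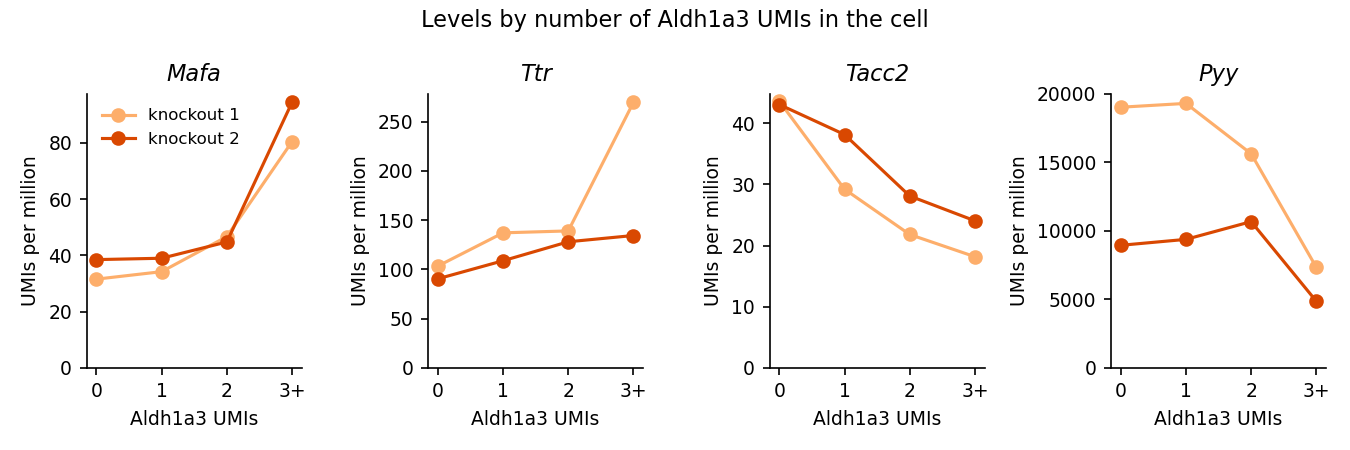
Level of Mafa, Ttr, Tacc2 and Pyy (vertical axes, CPM, from 0) in knockout beta cells by the number of Aldh1a3 UMIs in the cell (horizontal axis; 0 is the matched cells), 1 line per knockout library. Mafa reaches 80.4 and 94.4 and Pyy is lowest, at 7331 and 4853, among cells with at least 3 UMIs.

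The wild type libraries, which the choice of cells did not use, held 11 and 36 Aldh1a3-positive beta cells, set against 33 and 108 matched wild type cells. There edgeR called 0 of 6417 genes (0%), with 226 at an unadjusted p under 0.05. Of the 15 genes singled out in the knockout, 14 could be tested in wild type cells, and all 14 had the same direction of the fitted difference, 11 of them in both wild type libraries. Of all genes called in the knockout, 278 could be tested in wild type cells. Of these, 202 (72.7%) had the same direction, 136 (48.9%) in both wild type libraries. Among all 6417 genes tested in both genotypes 54.2% had the same direction, and 29.1% the same in both wild type libraries. This contrast was added after the knockout values were seen.

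Ckb stood at 75.0 and 146 CPM in the positive wild type cells of libraries 1 and 2 (95% exact Poisson intervals 50.2 to 108 and 129 to 165) and at 19.8 and 51.9 in their matched cells (12.6 to 29.7 and 46.0 to 58.3). Id2 stood at 93.0 and 57.7 against 38.7 and 24.9, and Id3 at 51.7 and 39.0 against 25.8 and 20.9. Positive cells were higher in both libraries for all 3 genes, although 1 of the 11 cells of library 1 held 80.0% of its Id3 UMIs. The fitted differences were 1.46 ± 0.18 for Ckb, 1.07 ± 0.19 for Id2 and 0.78 ± 0.23 for Id3 (edgeR adjusted p = 0.12, 0.28 and 1.0).

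Mafa went the other way in wild type cells. It stood at 59.4 and 129 CPM in positive wild type cells (intervals 37.7 to 89.2 and 113 to 147) and at 225 and 179 in their matched cells (198 to 254 and 168 to 191). Positive cells were lower in both wild type libraries and higher in both knockout libraries. The fitted wild type difference was -1.09 ± 0.29 and was not called (edgeR adjusted p = 0.99988). The Poisson intervals given for Ckb and Mafa cover counting error of the summed UMIs only, not the spread between cells. Ins1 and Ins2 made up 58.9% and 66.0% of the UMIs of positive and 66.8% and 68.1% of those of matched wild type cells, a gap that also moves CPM values and whose part was not tested. The knockout contrast exceeded the wild type contrast by 1.27 ± 0.16 on the log2 scale in a fit of all 8 sums with the library as a block (edgeR adjusted p = 0.000126). Of 11842 genes, 7 differed between the contrasts (0.0591%): Mafa, Txnip, Cd44, Ckb, Cd81, Chgb and Ambp. Of the other 6 the fitted wild type contrast was the higher one. Txnip (-0.11 in knockout, 1.10 in wild type) and Ambp (-0.25 and 2.35) had opposite signs, as Mafa did, and Cd44, Ckb, Cd81 and Chgb were positive in both. Mafa was called with any 1 of the 4 libraries left out (1.02 to 2.70), and each of the other 6 was lost without knockout library 1. Called doublets were 0 of 11 and 4 of 36 positive wild type cells, and 0 and 9 of their 33 and 108 matched cells; none of the positive wild type cells held markers of other types.

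**Figure D5:**
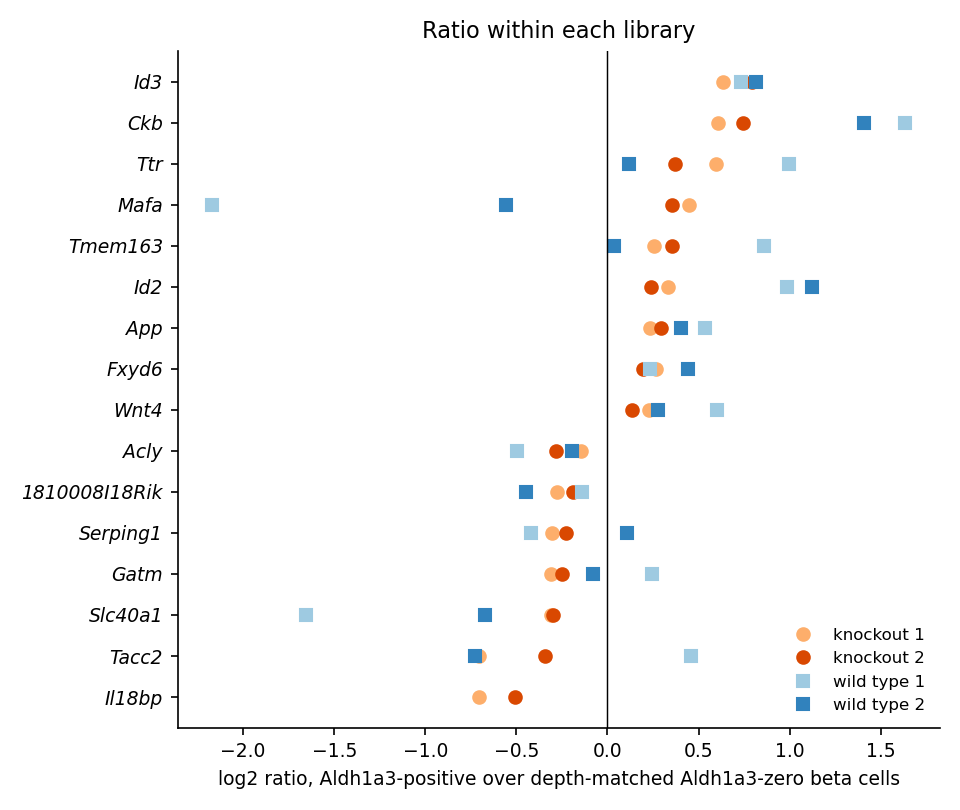
Log2 ratio of Aldh1a3-positive over matched Aldh1a3-zero beta cells (horizontal axis, scaled as in the fit, with 0.5 counts added) within each library for the 15 genes called in all blocked alternatives and for Mafa; circles are knockout and squares wild type libraries, and Il18bp has no wild type value. Ckb, Id3 and Id2 lie to the right in all 4 libraries, and Mafa lies to the right in both knockout (0.45 and 0.36) and to the left in both wild type libraries (-2.17 and -0.56).

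Knockout beta cells with Aldh1a3 alone were also set against those with Neurog3 alone, sets that share no cell by definition. Neurog3 was found in 19.9% and 26.7% of all positive cells and in 18.7% and 16.0% of matched cells, so these sets do not show that the genes mark different cells. There were 322 and 162 cells with Aldh1a3 and no Neurog3 UMI, and 399 and 186 with Neurog3 and no Aldh1a3 UMI. Between them edgeR called 256 of 12132 genes (2.11%), 197 higher (1.62%) and 59 lower (0.486%) in the Aldh1a3 cells. With scaling by library size alone 109 were higher and 142 lower, and the median of all genes moved by -0.10. The Aldh1a3 cells were deeper (median 49473 and 58267 against 41624 and 47161 UMIs), and their median insulin share was 43.3% and 45.4% against 36.3% and 41.7%. Against Neurog3 cells nearest in depth (median 45659 and 51159) 191 genes were called.

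In the sums, the Aldh1a3 cells held more RNA of several cell cycle genes and less Pyy RNA than the Neurog3 cells. Of 27 cell cycle genes 13 were higher and 0 lower, with a median of 0.74 against 0.00 over all genes. Of all genes in this comparison 1.62% were higher and 0.486% lower. Of the 8 endothelial markers 5 were higher too, and cells with markers of other types were 13 and 6 of the Aldh1a3 and 11 and 1 of the Neurog3 cells; their part in the result was not tested. Stmn1 stood at 58.6 and 32.0 CPM against 10.2 and 4.72 (2.69 ± 0.092, edgeR adjusted p = 6.34e-08) and Mki67 at 22.0 and 14.7 against 4.64 and 2.92 (2.37 ± 0.13, edgeR adjusted p = 2.21e-06). Both libraries showed the gap, and at the nearest depth it was 2.56 for Stmn1 and 2.18 for Mki67. Top2a, Birc5, Cenpa, Cenpf, Cks2 and Pbk, further genes of mitosis, and the matrix gene Mgp completed the 8 largest rises with Stmn1, at 2.69 to 3.46. Part of this gap lay between the Neurog3 and the matched cells. Cenpa stood at 12.2 and 12.7 CPM in the Aldh1a3, 9.45 and 6.02 in matched and 2.29 and 1.31 in the Neurog3 cells. For Cenpf the values were 12.2 and 28.3, 15.5 and 10.6, and 3.69 and 0.402. Single cells held much of this RNA: among all positive cells of library 2, 1 cell held 93.5% of the UMIs of Mgp, 56.5% of Pbk, 55.8% of Cenpf, 44.6% of Top2a, 43.0% of Birc5, 41.8% of Cenpa and 37.8% of Cks2.

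Pyy stood at 15512 and 7288 CPM in the Aldh1a3 cells and at 29372 and 15983 in the Neurog3 cells (-0.93 ± 0.037, edgeR adjusted p = 1.93e-07). Matched cells, some of which hold Neurog3, stood at 19013 and 8939, nearer to the Aldh1a3 cells. Rbp4, the plasma retinol carrier, stood at 41.8 and 28.0 against 99.6 and 54.2 (-1.05 ± 0.069, edgeR adjusted p = 1.69e-05) and Itpr1, a calcium channel of the ER, at 25.6 and 20.7 against 53.6 and 54.1 (-1.08 ± 0.08, edgeR adjusted p = 4.64e-05). The other large falls were Ffar4 (-1.45), Cd79a (-1.27), Anpep (-0.82), Arg1 (-0.79) and Uchl1 (-0.78; not called at the nearest depth, edgeR adjusted p = 0.13). Mafa was higher in the Aldh1a3 cells, at 44.9 and 53.1 against 34.9 and 35.0 (0.56 ± 0.069, edgeR adjusted p = 0.0011), as were Ckb (0.57), Id3 (0.57), Ttr (0.43), Etv5 (0.90) and Ucn3 (0.46). Of the 32 identity genes 4 were higher and 0 lower, beside 1.62% higher and 0.486% lower over all genes.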

How the data were processed

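RNA of single islet cells was measured in 4 libraries. UMI counts per gene and cell were used as the authors deposited them; per the submitters' processing notes they were made with Cell Ranger 3.0.0 and Seurat 2.3.4 on mm10. The deposited cells are already filtered, with at least 501 genes and at most 9.96% mitochondrial UMIs each. Coordinates of Aldh1a3 come from the GENCODE annotation of that build. Doublets were scored against simulated doublets, with the approach of Scrublet, and were kept in the main comparison. Members, gene lists and comparisons were chosen with earlier results of these data known.

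UMIs were summed per library and set of cells. edgeR 4.0.16 (quasi-likelihood test, TMM, filterByExpr, Benjamini-Hochberg over all genes tested) compared positive with matched cells and Aldh1a3 with Neurog3 cells, with the library as a block, and matched knockout with wild type cells without one. The same contrast in wild type cells and its difference from the knockout contrast were added after seeing the data. Same-numbered knockout and wild type libraries were not treated as pairs, since the labels do not say whether such libraries were handled together. The correlation of same-numbered deviations was -0.02 over 12156 genes, which cannot exclude shared handling. Alternatives used DESeq2 1.42.0, limma 3.58.1 and other cells, filters and scalings. In simulated counts with 1 dispersion for all genes the first comparison recovered 86% of genes changed by 1 on the log2 scale and 76% of those changed by 0.5. The genes named are those of the choice, a panel of 38 genes, the 12 largest called changes each way (8 in the other comparisons) with at least 10 CPM in the higher set, the same direction in both libraries and no mitochondrial or sex-linked gene, and, from each list, the called genes of smallest p, 3 at most; further names were chosen after their values were seen. R 4.3.3, Python, NumPy, SciPy, pandas and matplotlib were used. Some named genes are not reported here.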

Additional observations from a re-analysis of the deposited data

Results flagged for a closer look

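The contrast of Aldh1a3-positive with matched beta cells was tested for a difference between genotypes, and 7 of 11842 genes differed (edgeR adjusted p under 0.05). The knockout contrast minus the wild type contrast was 1.27 on the log2 scale for Mafa, which was higher in positive knockout cells and lower in positive wild type cells. It was -1.22 for Txnip, -1.40 for Cd44, -0.93 for Cd81, -0.72 for Ckb, -0.57 for Chgb and -2.52 for Ambp. Txnip stood at 168 and 94.0 CPM in positive and 80.9 and 34.8 in matched wild type cells, and Cd44 at 41.4 and 34.1 against 15.5 and 8.80. Cd81, a tetraspanin, stood at 163 and 101 against 35.3 and 51.5, and Chgb, chromogranin B, at 1409 and 639 against 550.2 and 409. Ambp stood at 43.9 and 13.2 against 4.31 and 3.12, with 41.2% and 41.7% of its UMIs in 1 positive cell per library. Mafa was called in each of the 4 fits that left out a library, with differences of 1.02 to 2.70. Without knockout library 1 the other 6 were not called (edgeR adjusted p = 0.080 for Txnip and 0.28 to 1 for the rest), and without wild type library 2 neither were Cd44, Ckb and Txnip. The wild type sums hold 11 and 36 cells. The wild type beta share of library 1 lay within the interval of its alpha share, where 0 of 1124 cells, at a lower depth, held a UMI. The part of stray RNA in the difference was not tested.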

How the results depend on the processing

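For the 456 genes that differed between positive and matched cells, the number was 300 with sums scaled by cell number, 179 without a filter, 8 with DESeq2, 293 with 1 matched cell each, 244 against all Aldh1a3-zero cells, 126 matched on UMIs outside insulin, 162 at 2 or more Aldh1a3 UMIs, 57 at exactly 1, 87 without Neurog3 cells and 204 at an insulin share of 20%. The share of higher calls was 56.6%, against 77.7% scaled by cell number and 48.4% by library size alone (194 higher, 207 lower). With no replicate block edgeR called 0 of 13303, and with the replicate block 5544 genes differed between matched knockout and wild type cells. Leaving out a library leaves no residual degrees of freedom for positive against matched cells; per-library values are given instead. Against wild type the number was 12520 by library size alone, 13236 by cell number and 3549 to 5403 without 1 library. Against Neurog3 cells it was 544 without a filter, 41 with DESeq2, 22 with no replicate block and 520 without doublets. The 7 genes that differed between genotypes were 28 without cells of other types, 21 by library size alone and 2 to 122 without 1 library (2 without knockout library 1, 122 without wild type library 2). The share of Aldh1a3-positive beta cells differed by 15.4 points, by 4.03 thinned, 4.93 at 2 UMIs, 15.8 at an insulin share of 20% and 15.1 to 15.8 without 1 library. Directions turned for Ppy (-0.0010) and Ucn3 (-0.064) at exactly 1 UMI, for Mki67 (-0.10), Top2a (-0.091), Emcn (-0.63), Egfl7 (-0.64) and S100a6 (0.40) at 2 or more, for Top2a (-0.13) with 1 matched cell each, for Egfl7 (-0.23) and H2-Eb1 (0.25) without cells of other types, and for H2-Eb1 (0.25) without doublets. The causes were not tested.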
